A study of Mus musculus with 10 samples.

Results

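Aminoacyl-tRNA synthetases are the enzymes that load each amino acid onto its tRNA, and their transcripts were read here in mouse C2C12 myotubes carrying extra Arrdc2. The group was made up of genes in the deposited table that map to 36 listed symbols and whose deposited values average 3 or more. All 36 were found and all passed that filter, among 15223 tested genes and 57010 gene identifiers. Of these, 20 encode the cytosolic enzymes and 16, with symbols ending in 2, encode mitochondrial ones. C2C12 cells are immortalised mouse myoblasts, which stop dividing and join into long myotubes once growth serum is replaced. On day 3 of differentiation, wild-type C2C12 cells received either an adenovirus encoding Arrdc2 together with Gfp (the Arrdc2 group, 5 libraries) or an adenovirus encoding Gfp without Arrdc2 (the GFP group, 5 libraries). Both groups therefore carried adenovirus and Gfp, and both were harvested 48 h later for sequencing of polyadenylated RNA. Arrdc2 encodes an alpha-arrestin, an adaptor that links membrane proteins to ubiquitin ligases, and the comparison asks which transcripts differ when it is supplied to myotubes.

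Each synthetase recognises 1 amino acid and its tRNAs, joins the amino acid to ATP, and passes it to the end of the tRNA, which then carries it to the ribosome. Animal cells keep separate nuclear genes for the cytosolic enzymes and for the enzymes imported into mitochondria, with a few genes, among them Gars and Kars, serving both compartments. Many cytosolic synthetase genes are known targets of ATF4, a transcription factor whose translation increases when eIF2-alpha is phosphorylated during amino acid shortage or endoplasmic reticulum stress. ATF4 binds, with a C/EBP partner, to the CCAAT-enhancer binding protein-ATF response element.

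The core of that element, TGATGNAA, or TTNCATCA on the other strand, was searched in the RefSeq promoter window of each gene on build GRCm38.p6, which runs over 300 bases from 250 before the transcription start to 50 after it. Of the 20 cytosolic genes, 13 had a window and 5 of these (Aars, Gars, Iars, Tars and Yars) held the motif. Of the 16 mitochondrial genes, 14 had a window and 0 held it. Among all 32851 windows of that length in the RefSeq table, 3.97% held it. Counted by gene, as for the members, 4.51% of 27025 genes had a window with it. The windows are shown for the 3 genes with the motif among the 8 cytosolic genes that differed most between the groups, to show where the motif lies relative to the start; capitals mark the motif. All 3 are on the plus strand and are printed 5′ to 3′. The Gars window (chr6:55037751-55038050) has the motif at position -30 from the start, the Yars window (chr4:129189653-129189952) at 4, and the Aars window (chr8:111033592-111033891) at -112 and 10, counted to the leftmost base of each match.
Gars: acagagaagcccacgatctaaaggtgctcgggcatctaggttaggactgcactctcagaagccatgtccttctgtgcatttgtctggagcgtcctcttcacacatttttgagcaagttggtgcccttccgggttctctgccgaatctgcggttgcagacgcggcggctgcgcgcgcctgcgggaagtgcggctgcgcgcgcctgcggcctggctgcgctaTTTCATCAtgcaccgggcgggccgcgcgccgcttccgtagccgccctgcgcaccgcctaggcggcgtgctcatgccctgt
Yars: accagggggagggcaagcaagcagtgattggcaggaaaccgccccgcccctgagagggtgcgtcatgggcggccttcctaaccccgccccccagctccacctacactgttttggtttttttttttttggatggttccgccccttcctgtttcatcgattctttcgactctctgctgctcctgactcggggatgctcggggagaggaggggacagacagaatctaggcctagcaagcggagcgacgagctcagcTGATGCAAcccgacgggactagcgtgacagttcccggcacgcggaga
Aars: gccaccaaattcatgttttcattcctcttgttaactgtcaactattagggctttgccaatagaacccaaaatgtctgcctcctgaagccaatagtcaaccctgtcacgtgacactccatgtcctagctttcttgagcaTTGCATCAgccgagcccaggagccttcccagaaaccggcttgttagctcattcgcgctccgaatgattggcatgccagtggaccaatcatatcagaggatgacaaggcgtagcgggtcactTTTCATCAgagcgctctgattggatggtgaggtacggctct
A match is a run of letters, not a measured binding site, and the absence of a match says only that these letters are not in the window.

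Reads solved back from the deposited values and summed over genes were 23.5 to 28.65 M in the Arrdc2 libraries. In the GFP libraries they were 18.93 to 26.03 M. These are reads assigned to genes, not the sequenced depth. The authors deposited regularised log2 values, in which differences between libraries are shrunk, so whole reads were solved back from them; values per library are normalised reads, and percent changes with their 95% intervals come from these reads. Differences on the log2 scale, standard errors (SE) and adjusted p-values are from a limma fit to the deposited values of all tested genes, and "rose" and "fell" are used for genes past an adjusted p of 0.05. Libraries are named by their column numbers, which differ from the replicate numbers in the labels, and values per library are given in the order 6, 7, 9, 10 and 11 for Arrdc2 and 3 to 7 for GFP. Whether replicates were separate cultures is unstated, so the p-values describe the spread among these libraries, which may be technical. Reads of Arrdc2 itself were 128, 123, 158, 118 and 133 in the Arrdc2 libraries, against 90.4, 124, 109, 99.6 and 89.8 in the GFP libraries. The Arrdc2 group overlapped the GFP group. Arrdc2 rose by 28.6% in reads (95% interval of the change 9.35% to 51.2%), and the difference of the deposited, shrunken values was 0.11 on the log2 scale (± 0.03 SE, limma adjusted p = 0.0178); its call was lost when Arrdc2 library 9 (limma adjusted p = 0.057), GFP library 3 (0.0501) or GFP library 7 (0.052) was left out. The labels leave unstated whether transgene reads count towards this gene.

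The cell type label says myoblast, whereas the design describes myotubes. The 10 myotube markers Myh3, Myh8, Myh1, Myh4, Ckm, Acta1, Tnnt3, Ttn, Mymk and Myog were all detected, the lowest group mean being 5818 reads (Myh8 in Arrdc2), and together they held 290782 to 323998 reads in the Arrdc2 libraries and 313131 to 341817 in the GFP libraries. Of these 10, Myh8 and Acta1 fell and 0 rose. Over all tested genes, 15.8% fell and 14.5% rose, so the number of myotube markers that fell was near that share. Markers of proliferating myoblasts were present as well. Of the 6 listed (Pax7, Myf5, Mki67, Top2a, Cdk1 and Ccnb1), 5 rose and Mki67 was not called; they summed to 13715 to 17719 reads in the Arrdc2 libraries and 12049 to 13750.0 in the GFP libraries. Among 4 fibroblast markers Dcn rose, Pdgfra was not called and Lum and Thy1 were below the filter. They summed to 3473 to 3913 reads in the Arrdc2 libraries and 2516 to 3089 in the GFP libraries, nearly all of it Dcn. Adipocyte markers (0.0 to 3.3 reads in the Arrdc2 libraries, 0.9 to 2.5 in the GFP libraries), osteoblast markers (2.9 to 10.5 in the Arrdc2 libraries, 1.3 to 11.1 in the GFP libraries) and endothelial markers (7.7 to 15.5 in the Arrdc2 libraries, 12.0 to 14.9 in the GFP libraries) were near 0, and Plin1 of adipocytes was at 0 in all Arrdc2 libraries. The 4 macrophage markers summed to 89.6 to 97.9 reads in the Arrdc2 libraries and 90.1 to 97.3 in the GFP libraries, nearly all of it Cd68, with Adgre1 at 0 in all Arrdc2 libraries. The part of the shift in myoblast markers and in Dcn in the results below was not tested. In RNA from whole cultures, fewer cells of a type and less RNA per cell cannot be told apart.

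The cytosolic synthetases were lower in the Arrdc2 myotubes nearly throughout, whereas most mitochondrial synthetases were not called. Of the 20 cytosolic genes, 17 fell, 0 rose and 3 were not called, where 30.3% of all tested genes were called, 15.8% lower and 14.5% higher in Arrdc2. The median log2 difference of the cytosolic genes was -0.26, with a range of -0.44 to 0.00, and the median over all tested genes was 0.00. In 15 of the 20 genes every Arrdc2 library lay below every GFP library, which was the case for 11.0% of all tested genes. Of the 16 mitochondrial genes, 3 fell (Lars2, Nars2 and Ears2), 1 rose (Aars2) and 12 were not called, with a median log2 difference of 0.00 and a range of -0.52 to 0.12. A limma voom fit to the recovered reads, which called 15.7% of the tested genes lower and 14.3% higher, gave the same counts in both sets. Genes as abundant as the cytosolic synthetases fell more often than genes in general: among the 2165 tested genes in their range of mean values, 28.0% fell and 12.2% rose, with a median log2 difference of -0.03. In the range of the mitochondrial genes, which holds 9556 tested genes, 18.6% fell and 17.7% rose.

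**Figure D1:**
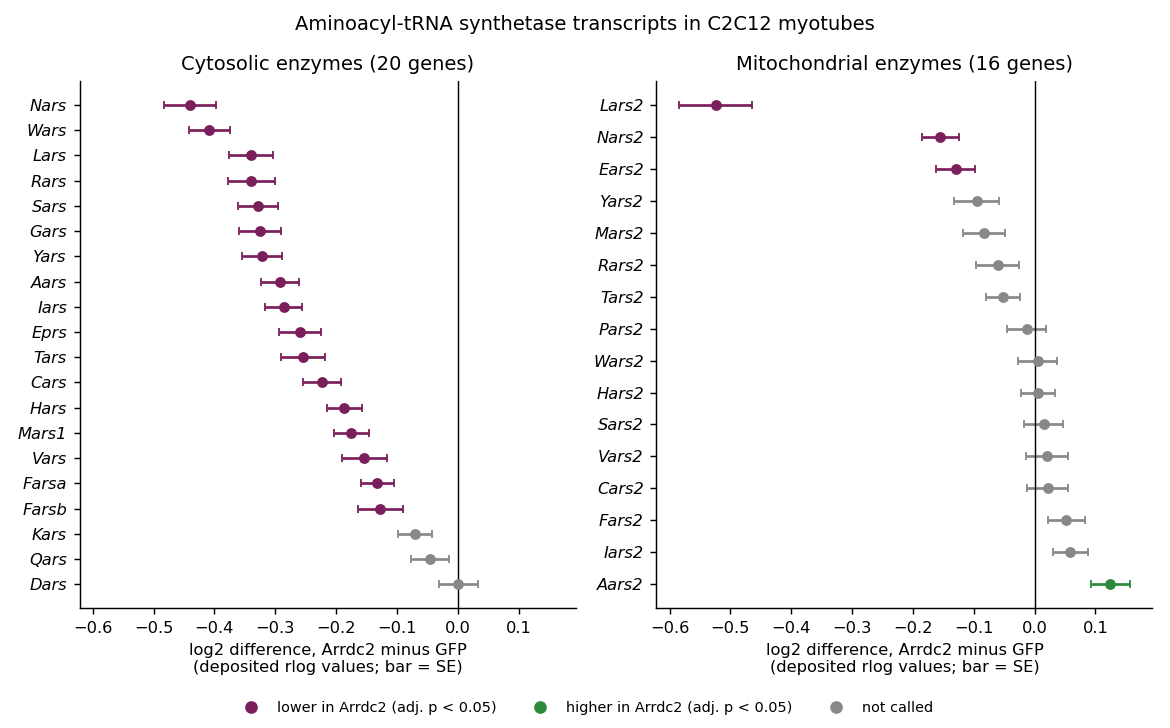
Log2 difference (Arrdc2 minus GFP, deposited regularised log2 values, x axis) of each of the 20 cytosolic genes (left) and 16 mitochondrial genes (right), with SE bars and colours for genes that fell, rose or were not called. In the cytosolic panel 17 genes lie left of 0 and are called. In the mitochondrial panel Lars2 (-0.52), Nars2 (-0.16) and Ears2 (-0.13) are called lower and Aars2 (0.12) higher, and the other 12 are not called.

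Summed over the 20 cytosolic genes, reads were 114946, 119733, 114675, 123812 and 124164 in the Arrdc2 libraries, against 155943, 147870.1, 143536, 154775 and 157601 in the GFP libraries. The groups did not overlap, and the Arrdc2 mean of 119466 ± 4594 was 21.4% below the GFP mean of 151945 ± 5985 (SD, n = 5 each). Summed over the 16 mitochondrial genes, the Arrdc2 mean was 13869 ± 340 reads and the GFP mean 16281 ± 850 reads (SD, n = 5 each), a difference of -14.8%. Most of that difference lay in Lars2. Without it the other 15 mitochondrial genes summed to 9858 to 10343 reads in the Arrdc2 libraries and 10075 to 10249.5 in the GFP libraries, with means of 10063 ± 176 and 10190.1 ± 70.5 reads (SD, n = 5 each), and the groups overlapped.

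**Figure D2:**
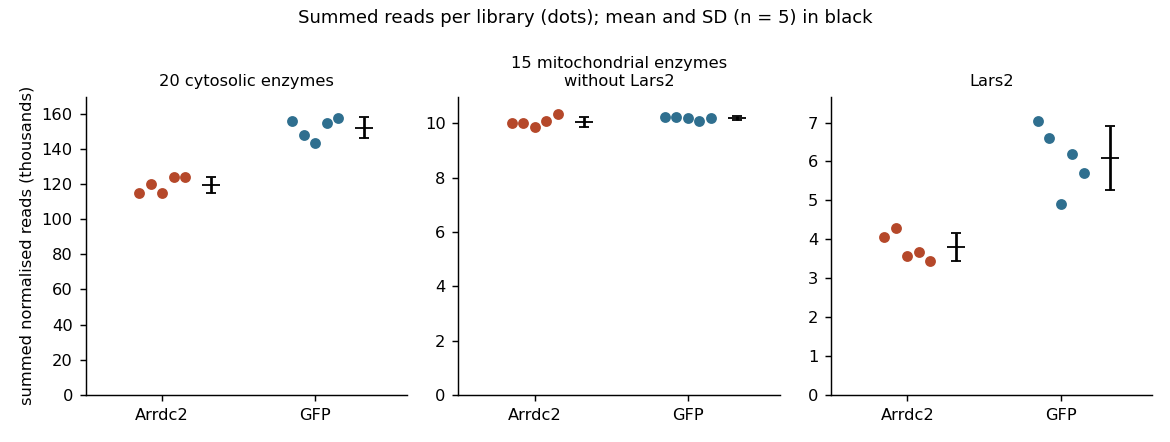
Summed normalised reads (y axis, in units of 1000 reads, from 0) per library for the 20 cytosolic genes, the 15 mitochondrial genes other than Lars2, and Lars2, with Arrdc2 left of GFP and the mean and SD of 5 libraries in black. The cytosolic sum lies between 114675 and 124164 reads in Arrdc2 libraries and between 143536 and 157601 in GFP libraries, and the sum of the 15 mitochondrial genes overlaps between the groups.

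The largest cytosolic differences were those of the asparagine and tryptophan enzymes. Nars (ENSMUSG00000024587.11), which charges asparagine, had 10263, 11168, 10238, 12304 and 12035 reads in the Arrdc2 libraries, against 16857, 16042, 14973, 16536 and 17491 in the GFP libraries. The groups did not overlap, and Nars fell by 31.7% in reads (95% interval of the change -36.8% to -26.2%), a log2 difference of -0.44 (± 0.04 SE, limma adjusted p = 4.97e-07). Wars (ENSMUSG00000021266.17), the tryptophan enzyme, had 3941, 4042, 3854, 4094 and 4107 reads in the Arrdc2 libraries, against 5813, 5591, 5247, 6182 and 6016 in the GFP libraries. Again every Arrdc2 library lay below every GFP library, and Wars fell by 30.4% in reads (95% interval of the change -34.6% to -25.9%), with a log2 difference of -0.41 (± 0.03 SE, limma adjusted p = 5.65e-08). The Arrdc2 libraries were also close together for Wars, with an SD of 108 reads against 367 among the GFP libraries.

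Among enzymes of the multisynthetase complex, a cytosolic assembly of several synthetases on scaffold proteins, the leucine and arginine enzymes differed most. Lars (ENSMUSG00000024493.10), the leucine enzyme and also known as a leucine sensor of the mTORC1 pathway, had 5616, 6007, 5576, 6208 and 6327 reads in the Arrdc2 libraries, against 8349.7, 7847, 7334, 8158 and 8365 in the GFP libraries. Lars fell by 25.8% in reads (95% interval of the change -30.5% to -20.7%), with a log2 difference of -0.34 (± 0.04 SE, limma adjusted p = 1.4e-06) and no overlap between groups. Rars (ENSMUSG00000018848.5), which charges arginine, had 4429, 4579, 4414, 5040.3 and 5004 reads in the Arrdc2 libraries, against 6649, 6134, 5813, 6280.0 and 6803 in the GFP libraries. It fell by 25.9% in reads (95% interval of the change -31.0% to -20.4%), again without overlap, and the log2 difference was -0.34 (± 0.04 SE, limma adjusted p = 3.01e-06).

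The serine, glycine, tyrosine and alanine enzymes, none of them part of the complex, moved by similar amounts. Sars (ENSMUSG00000068739.14), the serine enzyme, had 10073, 10636, 9839.8, 11023 and 10973 reads in the Arrdc2 libraries, against 14566, 13523, 13149, 14259.6 and 14349 in the GFP libraries. All 5 Arrdc2 libraries were below the lowest GFP library; Sars fell by 24.8% in reads (95% interval of the change -29.1% to -20.2%), and the log2 difference was -0.33 (± 0.03 SE, limma adjusted p = 8.7e-07). Gars (ENSMUSG00000029777.11), the glycine enzyme of both cytosol and mitochondria whose promoter window is printed above, had 9565, 9881, 9224, 9798 and 9984 reads in the Arrdc2 libraries, against 13421, 11935, 12085, 13319.5 and 13585 in the GFP libraries. No Arrdc2 library reached the GFP range, and Gars fell by 24.6% in reads (95% interval of the change -29.0% to -19.9%), with a log2 difference of -0.33 (± 0.03 SE, limma adjusted p = 1.23e-06).

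Yars (ENSMUSG00000028811.13), the tyrosine enzyme, had 3806, 3856, 3733, 3971 and 3767 reads in the Arrdc2 libraries, against 5149.9, 4757, 4862, 5542 and 5206 in the GFP libraries. The Arrdc2 libraries differed from each other less than the GFP libraries did, at 3826 ± 92.6 against 5104 ± 310 reads (SD, n = 5 each), and the groups did not overlap. Yars fell by 24.9% in reads (95% interval of the change -29.3% to -20.3%), a log2 difference of -0.32 (± 0.03 SE, limma adjusted p = 7.63e-07). Aars (ENSMUSG00000031960.15), the alanine enzyme and the most abundant member in reads, had 12951, 13680.2, 12923, 13949 and 13859 reads in the Arrdc2 libraries, against 17640.2, 16500.1, 16578, 18063 and 17940.1 in the GFP libraries. These groups too were separate, and Aars fell by 22.3% in reads (95% interval of the change -26.4% to -17.9%), with a log2 difference of -0.29 (± 0.03 SE, limma adjusted p = 1.75e-06).

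**Figure D3:**
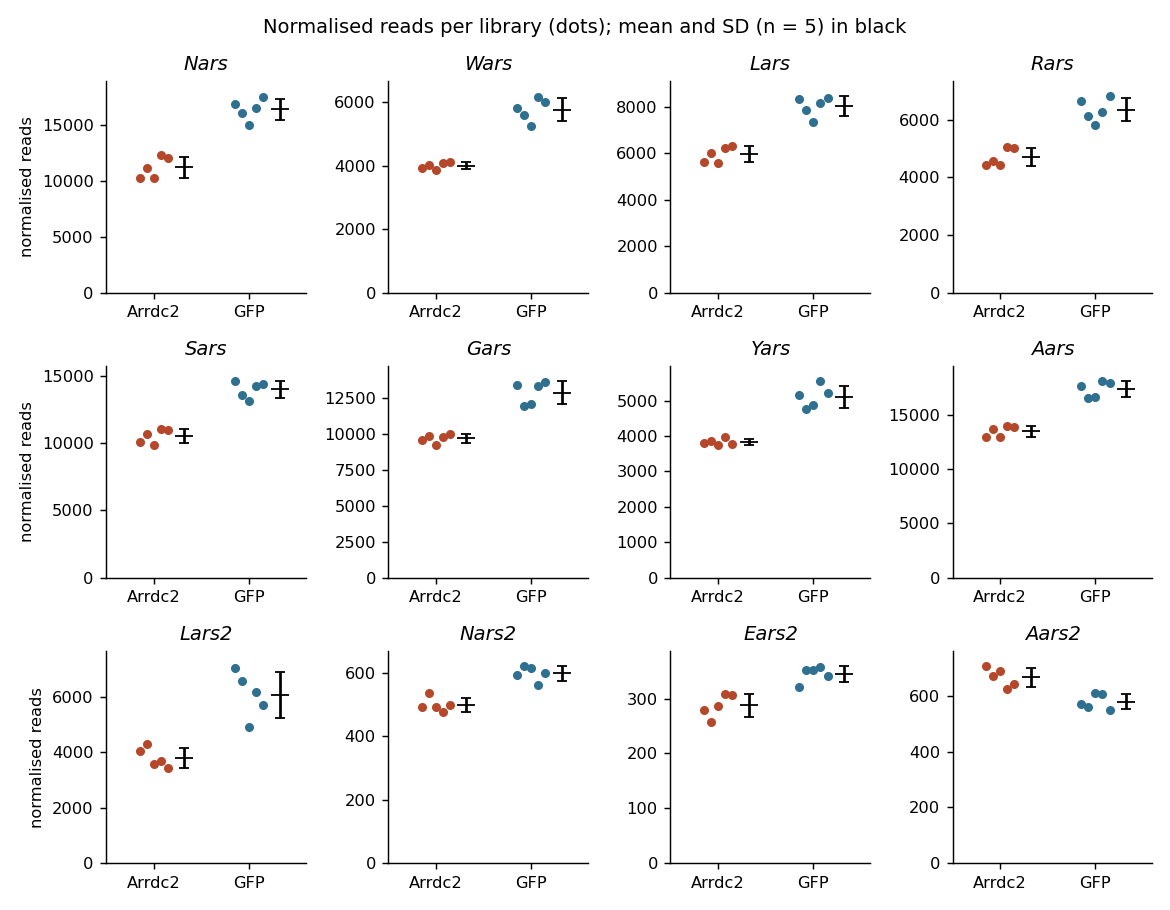
Normalised reads (y axis, from 0) in each library of the 8 cytosolic and 4 mitochondrial genes with the largest called differences, Arrdc2 left of GFP, with the mean and SD of 5 libraries in black. In 11 of the 12 genes every Arrdc2 library lies below every GFP library, and in Aars2 every Arrdc2 library lies above.

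Of the other 9 cytosolic genes that fell, Iars (isoleucine), Eprs (glutamate and proline, joined in 1 protein), Tars (threonine) and Cars (cysteine) had log2 differences of -0.29, -0.26, -0.25 and -0.22. Hars (histidine), Mars1 (methionine), Vars (valine), Farsa and Farsb (the alpha and beta chains of the phenylalanine enzyme) had log2 differences of -0.19, -0.17, -0.15, -0.13 and -0.13. In Vars 4 Arrdc2 libraries and in Farsb 3 lay below the lowest GFP library; in the other 7 all 5 did. Farsb lost its call with quantile normalisation (limma adjusted p = 0.0665). Farsa and Farsb form 1 enzyme, and their difference within a library did not move detectably between the groups (-0.01 on the log2 scale, exact 2-sided permutation p = 0.929). Per kilobase of transcript, the ratio of Farsa to Farsb reads was 1.14 to 1.23 in the Arrdc2 libraries and 1.09 to 1.28 in the GFP libraries.

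The 3 cytosolic genes without a call were Kars (lysine), Qars (glutamine) and Dars (aspartate), and all 3 enzymes belong to the multisynthetase complex. Kars averaged 5067 ± 151 reads in Arrdc2 and 5393 ± 140 reads in GFP libraries (SD, n = 5 each), a change of -6.05% (95% interval -10.7% to -1.18%, limma adjusted p = 0.0608). Qars averaged 2663 ± 128 reads in Arrdc2 and 2776 ± 98.8 reads in GFP libraries, a change of -4.09% (-9.62% to 1.78%, limma adjusted p = 0.285). Dars had 3815, 3953, 3938, 4221 and 4263 reads in the Arrdc2 libraries, against 4095, 4071, 3936, 3827 and 4237 in the GFP libraries. Those groups overlap through most of their range, and the interval of the change in Dars runs over -5.64% to 6.22% (limma adjusted p = 0.984). In all 3 the interval ends short of the median change of the 20 cytosolic genes, which was -20.1%. Kars passed the threshold in 5 of 18 alternative fits.

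By position in the complex, 5 of its 8 enzymes fell (Lars, Rars, Iars, Eprs and Mars1; median log2 difference of the 8 genes -0.22, range -0.34 to 0.00), and all 12 cytosolic enzymes outside it fell (median -0.27, range -0.44 to -0.13). The 3 scaffold genes of the complex fell as well, where 15.8% of all tested genes fell. Eef1e1, which encodes the scaffold protein AIMP3, had 917, 985, 914, 1090.1 and 1023 reads in the Arrdc2 libraries, against 1209, 1195, 1183, 1208 and 1347 in the GFP libraries. Its groups did not overlap and the log2 difference was -0.22 (± 0.04 SE, limma adjusted p = 0.000181). Aimp2 and Aimp1 had log2 differences of -0.10 and -0.08 (limma adjusted p = 0.0305 and 0.0448); both calls were lost with quantile normalisation (0.0856 and 0.179) and in 4 of the 10 fits for Aimp2 and 7 of the 10 for Aimp1 that left out a library. By structural class of the catalytic domain, 9 of 10 cytosolic class I genes fell (median -0.27) and 8 of 10 class II genes (median -0.22), beside the same 15.8%.

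In the mitochondrial set the leucine enzyme stood apart. Lars2 (ENSMUSG00000035202.9) had 4057, 4295, 3566, 3678 and 3432 reads in the Arrdc2 libraries, against 7051, 6605, 4915, 6179 and 5703 in the GFP libraries. The groups did not overlap, although the spread was wide, with coefficients of variation of 9.44% in Arrdc2 and 13.6% in GFP libraries. Lars2 fell by 37.2% in reads (95% interval of the change -43.9% to -29.6%), and its log2 difference of -0.52 (± 0.06 SE, limma adjusted p = 3.45e-06) was the largest among the 36 genes. Its transcript shares a stretch of 72 bases, 98.6% identical, with Gm15564, which had 13.4 to 23.7 reads in the Arrdc2 libraries and 22.8 to 34.2 in the GFP libraries and also fell (log2 difference -0.06, limma adjusted p = 0.0153), so the split of reads between these genes is uncertain, and its part in the result was not tested.

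Nars2 (ENSMUSG00000018995.13), the mitochondrial asparagine enzyme, had 493, 539, 492, 479 and 498 reads in the Arrdc2 libraries, against 594, 624, 615, 564 and 600.0 in the GFP libraries. Without overlap between the groups, it fell by 16.6% in reads (95% interval of the change -22.6% to -10.2%), a log2 difference of -0.16 (± 0.03 SE, limma adjusted p = 0.000771). Ears2 (ENSMUSG00000030871.12), which charges glutamate in mitochondria, had 279, 257, 286, 309 and 307 reads in the Arrdc2 libraries, against 320.4, 351, 352, 358 and 341 in the GFP libraries. Every Arrdc2 library was below the lowest GFP library, and Ears2 fell by 16.7% in reads (95% interval of the change -24.3% to -8.28%), with a log2 difference of -0.13 (± 0.03 SE, limma adjusted p = 0.00494). Aars2 (ENSMUSG00000023938.9), the mitochondrial alanine enzyme, had 712, 673, 692, 626 and 645 reads in the Arrdc2 libraries, against 573, 563, 612, 608 and 549.7 in the GFP libraries. It was the only synthetase gene called higher in the Arrdc2 libraries, and it rose by 14.9% in reads (95% interval of the change 6.39% to 24.1%), with a log2 difference of 0.12 (± 0.03 SE, limma adjusted p = 0.00622). Its groups did not overlap, as in 8.7% of all tested genes with Arrdc2 higher.

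The 12 mitochondrial genes without a call lay between -0.10 and 0.06 on the log2 scale. Yars2 (tyrosine, limma adjusted p = 0.0581) and Mars2 (methionine, 0.0723) were nearest to the threshold on the lower side and Iars2 (isoleucine, 0.131) on the higher side. Of 18 alternative fits, Yars2 passed the threshold in 5, Mars2 in 1 and Iars2 in 2. Iars2, the most abundant of the 12 in reads, averaged 2476 ± 58.8 reads in Arrdc2 and 2346 ± 94.7 in GFP libraries (SD, n = 5 each). For Hars2 and Wars2, which charge histidine and tryptophan, the intervals of the change ran over -5.79% to 7.43% and -8.43% to 11.6%. The least abundant in reads, Pars2 (proline), had the widest interval of the 12, -16.5% to 12.0%. The remaining genes, Rars2, Tars2, Sars2, Vars2, Cars2 and Fars2, had log2 differences of -0.06, -0.05, 0.02, 0.02, 0.02 and 0.05.

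Several members share bases with another gene, and although the library kit is directional, the sources used here do not give the strand setting of the counting, so reads of antisense partners cannot be told apart. Hars and Hars2 overlap head to head over 195 bases. Ears2 overlaps Ubfd1 over 89 bases, and Ubfd1 itself fell (log2 difference -0.24, limma adjusted p = 6.49e-06). Mars1 overlaps Ddit3 over 67 bases, and Ddit3 fell by 0.43 on the log2 scale (limma adjusted p = 1.41e-07). Iars2 shares 2034 bases with Rab3gap2, which was not called (limma adjusted p = 0.478). Nars2 overlaps an antisense transcript over 284 bases. Aars shares 1326 bases on its own strand with Exosc6, which is listed at 0 reads in all 10 libraries.

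The contrast between the sets was then measured within each library, as the cytosolic minus the mitochondrial value of the same amino acid, for 17 pairs (Eprs enters with both Ears2 and Pars2, and Farsa and Farsb both with Fars2, so the pairs are not independent). In 16 of the 17 the difference was lower in the Arrdc2 libraries at an exact 2-sided permutation p below 0.05, unadjusted. In 14 the groups did not overlap, at the smallest p that assignments of 10 libraries to 2 groups of 5 allow, 0.00794. The share over pairs of other genes was not computed. Among single genes, 11.0% of all tested genes had every Arrdc2 library below every GFP library. The pairs reuse the cytosolic values given above, so their counts largely restate the lower cytosolic reads. On recovered reads 14 of the 17 were lower at an exact 2-sided permutation p below 0.05, unadjusted. The median change in the ratio over the 17 pairs was -16.9%. Eprs with Ears2 (exact permutation p = 0.444) and Mars1 with Mars2 (exact permutation p = 0.111) were the pairs that did not hold on reads.

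The alanine pair moved most, and its members moved in opposite directions. Reads of Aars for each read of Aars2 were 18.2, 20.3, 18.7, 22.3 and 21.5 in the Arrdc2 libraries, against 30.8, 29.3, 27.1, 29.7 and 32.6 in the GFP libraries. The groups did not overlap, with means of 20.2 ± 1.76 in Arrdc2 and 29.9 ± 2.03 in GFP libraries (SD, n = 5 each). From the means of the log2 ratios of reads, the ratio was 32.6% lower in the Arrdc2 libraries (log2 difference of deposited values -0.42, exact 2-sided permutation p = 0.00794). For tryptophan, the reads of Wars for each read of Wars2 were 14.4 ± 0.916 in Arrdc2 and 20.8 ± 1.48 in GFP libraries (SD, n = 5 each; exact 2-sided permutation p = 0.00794). For isoleucine, whose mitochondrial form is the most abundant in reads after Lars2, the ratio was 2.61 ± 0.059 in Arrdc2 and 3.55 ± 0.26 in GFP libraries (SD, n = 5 each; exact 2-sided permutation p = 0.00794). In the leucine pair both forms fell. Reads of Lars for each read of Lars2 were 1.38, 1.40, 1.56, 1.69 and 1.84 in the Arrdc2 libraries, against 1.18, 1.19, 1.49, 1.32 and 1.47 in the GFP libraries. These groups overlapped. From the means of the log2 ratios of reads, the ratio was 18.3% higher in the Arrdc2 libraries (log2 difference of deposited values 0.18, exact 2-sided permutation p = 0.0794).

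**Figure D4:**
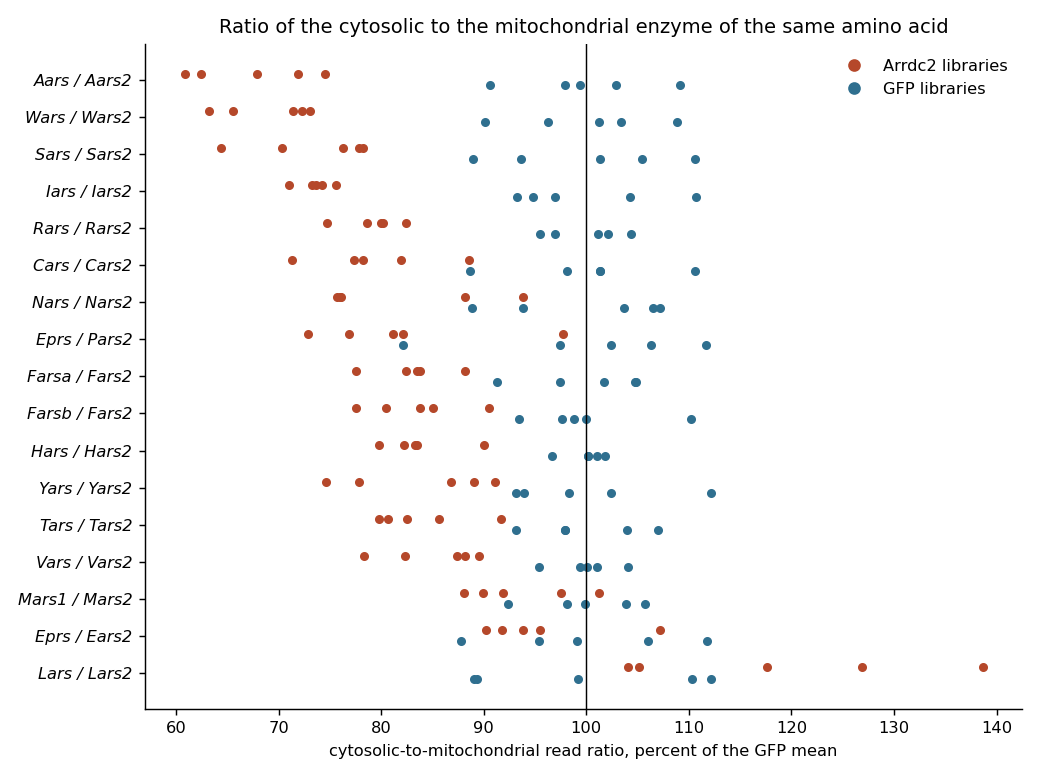
Reads of the cytosolic gene divided by reads of the mitochondrial gene of the same amino acid, as a percent of the GFP mean (x axis), for 17 pairs (y axis), with Arrdc2 libraries drawn above GFP libraries in each row. Ratios lie lower in the Arrdc2 libraries in most pairs, most in the alanine pair (32.6% lower), and higher in the leucine pair (18.3% higher). Both changes are from means of log2 ratios.

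Levels per kilobase of transcript, which allow genes to be compared, differed between the sets as well. In the Arrdc2 libraries the cytosolic genes had a median of 1712 reads per kilobase (951 to 4081) and the mitochondrial genes 200.2 (60.6 to 977). In the GFP libraries the medians were 1986 (991 to 5967) and 186 (62.2 to 1564). Nars and Gars led the order in both groups, with 4081 and 4072 reads per kilobase in Arrdc2 and 5967 and 5407 in GFP libraries. Lars2 was the only mitochondrial gene among the levels of the cytosolic set. It ranked 20 of 36 in Arrdc2 libraries, with 977 reads per kilobase, and 16 in GFP libraries, with 1564. Wars ranked 8 in Arrdc2 and 4 in GFP libraries, and Kars ranked 4 in Arrdc2 and 8 in GFP libraries. The level of Aars, 2343 in Arrdc2 and 3016 in GFP libraries, is uncertain because its transcript model includes the bases shared with Exosc6. Across the 20 cytosolic genes, which share the same 10 libraries, more abundant genes had the larger decreases (Pearson r = -0.60, Spearman rho = -0.61 between mean deposited value, which grows with transcript length, and log2 change of reads). Across the 16 mitochondrial genes, Lars2 included, the same measures gave Pearson r = -0.45 and Spearman rho = -0.22.

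The 5 cytosolic genes with the response element motif all fell, with log2 differences of -0.33 to -0.25 (Gars, Yars, Aars, Iars and Tars). Of the 8 cytosolic genes whose window lacked the motif, 5 fell, with a median log2 difference of -0.13 and a range of -0.33 to 0.00. In 3 of those 8 windows (Dars, Kars and Sars), and in that of Sars2, the letters after the start were not found in a GENCODE transcript of the gene, so whether they lie at its start is uncertain. Nars, Wars, Lars and Rars, which had the largest differences of the set, are among the 7 cytosolic genes without a window here. The groups with and without the motif were not compared by a test.

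Other genes of the same pathways were read from lists arranged by role. Of 16 genes of cytosolic tRNA processing and export, 9 fell and 0 rose, beside 15.8% of all tested genes lower and 14.5% higher. Xpot, which encodes exportin-T, the carrier of tRNAs out of the nucleus, had 4643, 4637, 4301, 4330.4 and 4475 reads in the Arrdc2 libraries, against 6237, 5734, 5682, 6209 and 6168 in the GFP libraries. Its groups did not overlap and the log2 difference was -0.33 (± 0.03 SE, limma adjusted p = 3.39e-07). Trmt61a and Nsun2, which methylate tRNA bases, fell (log2 differences -0.30 and -0.27), to 528 ± 20.4 and 2938 ± 76.8 reads in Arrdc2, against 738 ± 40.8 and 3748 ± 65.3 reads in GFP libraries (SD, n = 5 each; limma adjusted p = 1.59e-06 and 5.7e-07). Wdr4 and Mettl1, partners in another tRNA methyltransferase, fell (-0.27 and -0.16), whereas the tRNA splicing endonuclease genes Tsen15 and Tsen34 were not called and Tsen54 fell by 0.13.

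Of 10 companions of mitochondrial charging, 4 fell, 1 rose and 5 were not called; the single gene that rose is close to the 14.5% of all tested genes that did. Trnt1, which adds the CCA end to tRNAs in both mitochondria and cytosol, fell to 1374 ± 89.5 reads in Arrdc2, against 1861 ± 89.1 in GFP libraries (SD, n = 5 each; log2 difference -0.32 ± 0.03 SE, limma adjusted p = 2.1e-06). Trmt10c and Elac2, which help to cut tRNAs out of the mitochondrial precursor, fell (-0.22 and -0.21), and Prorp, of the same step, fell by 0.10. Gatb, a subunit of the amidotransferase that makes glutaminyl-tRNA in mitochondria, rose by 0.11 (limma adjusted p = 0.0169), whereas its partners Qrsl1 and Gatc were not called. Of 4 proofreading genes, Dtd2, which removes mischarged amino acids from tRNAs, rose by 0.12 (limma adjusted p = 0.0103) and 3 were not called, again near that share.

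In the ATF4 pathway other than the synthetases, 26 of 32 genes fell, 4 rose and 2 (Gpt2 and Eif2ak4) were not called, beside 15.8% of all tested genes lower and 14.5% higher, with a median log2 difference of -0.29 beside -0.26 for the cytosolic synthetases. Atf4 itself had 9229, 9506, 8869.8, 9614 and 9836 reads in the Arrdc2 libraries, against 13973, 12253, 11880.1, 13712 and 14029.9 in the GFP libraries. Its groups were separate and the log2 difference was -0.38 (± 0.04 SE, limma adjusted p = 7.5e-07). The largest decreases were those of Atf3, a transcription factor of the stress response, Slc7a11, the cystine transporter, and Trib3, a pseudokinase that restrains Akt. Atf3 fell to 661 ± 43.4 reads in Arrdc2, against 1610 ± 236 in GFP libraries, Slc7a11 to 503 ± 67.5 against 1202 ± 35.1, and Trib3 to 1422 ± 150 against 2866 ± 332 (SD, n = 5 each; limma adjusted p = 2.05e-09, 1.69e-10 and 1.59e-08). The 4 genes that rose were the eIF2-alpha kinases Eif2ak1, Eif2ak2 and Eif2ak3 (log2 differences of 0.08, 0.22 and 0.20) and Ddit4, an inhibitor of mTORC1 (0.16). Asns, which makes the amino acid that Nars charges, had a log2 difference of -0.52, beside -0.44 for Nars. Slc7a5 and Slc3a2, the 2 chains of the large neutral amino acid transporter that brings in leucine and tryptophan, fell as well (-0.43 and -0.42).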

How the data were processed

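RNA from 10 libraries, 5 with Arrdc2 and 5 with GFP adenovirus, was analysed. The authors deposited regularised log2 values per gene; STAR 2.7.10a, DESeq2 1.30.1 and build GRCm39 are named per the submitters' processing notes, whereas the sources used here name no counting tool or annotation release. Symbols were matched by identifier to GENCODE vM21 (52029 of 57010). Genes averaging at least 3 were fitted with limma 3.58.1 (R 4.3.3; linear model on group, mean-variance trend, Benjamini-Hochberg over 15223 genes, threshold 0.05). A regularised value is a penalised fit to a count, so reads could be solved for: in 10620 genes held out, 98.9% of values came within 0.1 reads of a whole number (20% by chance), but 81.8% above 10000 reads, so the most abundant genes are less exact. The recovered reads, fitted with limma voom, are an alternative to the main test. Scripts were tested on simulated data. Shared stretches of at least 50 bases and 95% identity were found with BLAST+ 2.17.0 on GENCODE transcripts, and lengths are those of the principal transcript. The members and all gene lists were chosen with earlier results of these data known. Values per library are given for the 8 cytosolic and 4 mitochondrial members with the largest called differences; companion genes named are up to 3 per list by the same measure, and others were named after their values were seen. Alternatives changed the filter, scaling, weights, test and the libraries included. Results for some companion genes are not reported here.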

Additional observations from a re-analysis of the deposited data

Results flagged for a closer look

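In Qars, the glutamine enzyme, 1 library lay far from the others of its group. The deposited log2 value of Arrdc2 library 11 was 11.472 (2880.7 normalised reads), whereas the other 4 Arrdc2 libraries lay between 11.345 and 11.381, and Qars was not called lower in any of the alternative fits, including the one without that library. It was the 1 outlying value among 72 groups of 5 libraries, of which chance alone flags about 1 in 20.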

How the results depend on the processing

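No paired analysis was possible because the columns carry numbers that differ from the replicate numbers of the labels. Among the 20 cytosolic genes, 16 to 18 fell and 0 rose under every alternative except a test against a minimum log2 difference of 0.1 (treat), where 12 fell; 16 fell when Gars and Kars were set aside. All 21 called synthetase genes kept call and direction in each fit without 1 library, in which 17 to 18 cytosolic and 3 to 4 mitochondrial genes fell. Mitochondrial genes that fell numbered 5 with median centring and 1 with treat; those that rose numbered 2 with quantile normalisation, 0 with treat and 2 with voom scaled by total reads. The median log2 difference of the cytosolic members was -0.1982 with quantile normalisation and -0.3232 with voom on recovered reads (-0.2805 to -0.2423 without 1 library). The median log2 difference of the mitochondrial members was -0.0174 with median centring, -0.0267 with quantile normalisation, -0.0198 with voom, 0.0204 with voom scaled by total reads, and -0.0156 to 0.0072 without 1 library. Calls over all genes were 827 with treat, against 4616, and 3920.0 to 4598 without 1 library; 47.9% of the 4616 were higher in Arrdc2, 37.4% with median centring and 63.3% with voom scaled by total reads. The targeted gene Arrdc2 was 0.0861 higher with quantile normalisation and 0.1078 with treat, both without a call, 0.363 on recovered reads and 0.4037 with voom scaled by total reads, both called (limma adjusted p = 0.0194 and 0.00977) and free of the shrinkage of the deposited values, and 0.0851 to 0.1275 higher without 1 library. Pairs of cytosolic and mitochondrial genes that were lower numbered 14 to 15 without 1 library. Farsb lost its call with quantile normalisation (limma adjusted p = 0.0665) and voom scaled by total reads (0.0625). The cause of these changes was not tested.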
